A study of Homo sapiens with 4 samples.

Results

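The genes described here were 38 homeobox genes that are known from the development of other organs: 8 LHX genes, 6 IRX genes, SIX2, SIX3, SIX4 and SIX6, 6 DLX genes, pairs of OTX, EN, MSX, PITX, EMX and GBX genes, and NKX2-1 and NKX2-5. They were taken by name from the 20007 protein-coding genes of GENCODE release 44, and every accessible region within 10 kb of one of their gene bodies was counted as a member region, which gave 108 of 164301 regions. Each of the 38 genes had between 1 and 6 regions, with a median of 2.5, and 2 regions were shared by neighbouring members, DLX1 with DLX2 and DLX5 with DLX6.

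Accessibility was measured by ATAC-seq, in which a transposase cuts and tags open chromatin, in pancreatic progenitors made from MEL1, an established human embryonic stem cell line. The study's methods name it as MEL1 INS GFP/W, a line in which a gene for green fluorescent protein sits at the insulin locus, and all libraries are labelled with this line. All cells were grown in EF6 medium, which is DMEM with B27 supplement, the growth factors EGF (50 ng/ml) and bFGF (10 ng/ml), and 616452, an inhibitor of the TGF-β type I receptor, at 10 μM. For 7 days they received either DMSO, the solvent, or 1 μM I-BET151, which blocks the acetyl-lysine-binding bromodomains of BET proteins. Each condition had 2 libraries of 50000 cells from this 1 line, nothing in the labels says that they came from separate cultures, and p-values therefore measure only the spread between these libraries.

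Homeobox genes encode transcription factors that bind DNA through a homeodomain and give cells their position and lineage. Those of the brain, limb, eye, heart and kidney are usually silent in gut endoderm, and their promoters lie in CpG-rich stretches of DNA which Polycomb complexes commonly hold in a repressed state. The label of the group, genes not expected to act in pancreas progenitors, is about function and was not tested here. The promoters of SIX2, SIX4, OTX1 and PITX3 carried a peak in all 4 libraries (10.5% of the 38, background 53.6%). A called promoter does not show that its gene acts in these cells. SIX2 and SIX3 are also known from adult human beta cells, and IRX2 from alpha cells.

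The 4 peak lists were called separately and differed in length. They held 82568 and 38295 peaks for DMSO replicates 1 and 2, and 84995 and 111324 for I-BET151 replicates 1 and 2. The lowest pileup of a peak, in reads over its summit, was 10 and 11 in the DMSO lists but 5 and 6 in the I-BET151 lists. Depth, estimated from the background level and the shortest peak of each list, was 38.7 and 36.6 M reads (megareads) with DMSO and 12.5 and 16.0 M with I-BET151, so that per megaread the lowest peak was at 0.259, 0.301, 0.401 and 0.375. The I-BET151 libraries were thus the shallower ones by this estimate, and their lists were not called at a lower signal per megaread. Depth moves with condition here, and its part in the calls was not tested. Peaks were found within 1 kb of the start site of 9, 8, 10 and 10 of 11 pancreatic progenitor genes, in the order DMSO replicates 1 and 2 and I-BET151 replicates 1 and 2, which is the order used throughout; PDX1 was called only with I-BET151 and PTF1A in no library. Of genes that mark other cell types, promoters were called in 2, 2, 4 and 4 of 5 mesenchymal, 3, 1, 3 and 2 of 5 neural, 2, 2, 2 and 3 of 6 pluripotent, 3, 2, 2 and 2 of 5 hepatocyte, 1, 0, 2 and 1 of 6 endocrine and 0 of 3 blood markers. Among the mesenchymal markers, PRRX1 and PDGFRB were called only with I-BET151 and in bulk libraries a change in the share of such cells cannot be told apart from a change in accessibility per cell.

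Sequences at 7 member regions show what kind of DNA is concerned. Each is 200 bases of the plus strand of hg38, at or next to the summit and placed to leave out annotated UTRs. In the first set, CpG dinucleotides are in capitals. The set shows the SIX2 promoter, whose rank rose most, 4 regions called only with I-BET151 (the promoters of IRX2, MSX1 and PITX1 and a region upstream of EN1), and then the lost region downstream of SIX2.
SIX2 promoter, chr2:45009485-45009684: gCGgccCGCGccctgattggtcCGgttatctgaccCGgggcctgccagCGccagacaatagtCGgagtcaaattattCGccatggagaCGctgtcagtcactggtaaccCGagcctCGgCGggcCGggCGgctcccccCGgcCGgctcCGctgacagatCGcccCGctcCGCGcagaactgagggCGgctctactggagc
IRX2 promoter, chr5:2751681-2751880: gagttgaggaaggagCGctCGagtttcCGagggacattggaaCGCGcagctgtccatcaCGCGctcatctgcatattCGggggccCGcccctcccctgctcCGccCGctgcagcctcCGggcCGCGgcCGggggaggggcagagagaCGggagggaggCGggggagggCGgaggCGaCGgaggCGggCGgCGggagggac
MSX1 promoter, chr4:4859465-4859664: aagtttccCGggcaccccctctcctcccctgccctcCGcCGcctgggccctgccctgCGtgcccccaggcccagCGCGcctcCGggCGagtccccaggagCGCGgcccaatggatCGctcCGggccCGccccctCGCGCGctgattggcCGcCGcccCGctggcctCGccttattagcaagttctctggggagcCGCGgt
PITX1 promoter, chr5:135034253-135034452: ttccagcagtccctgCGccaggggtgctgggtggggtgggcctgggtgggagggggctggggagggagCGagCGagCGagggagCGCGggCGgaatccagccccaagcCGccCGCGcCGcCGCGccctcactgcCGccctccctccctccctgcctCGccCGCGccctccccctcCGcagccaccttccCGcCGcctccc
EN1 upstream, chr2:118855641-118855840: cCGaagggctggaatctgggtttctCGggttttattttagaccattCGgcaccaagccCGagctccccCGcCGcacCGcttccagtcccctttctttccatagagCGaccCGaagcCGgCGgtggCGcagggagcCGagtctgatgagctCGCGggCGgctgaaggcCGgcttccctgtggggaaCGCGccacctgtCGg
SIX2 downstream, chr2:45000680-45000879: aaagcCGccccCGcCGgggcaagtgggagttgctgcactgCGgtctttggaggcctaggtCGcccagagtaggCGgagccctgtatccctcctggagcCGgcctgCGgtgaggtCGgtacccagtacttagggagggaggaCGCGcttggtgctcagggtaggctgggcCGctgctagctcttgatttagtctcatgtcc
The first 5 windows held 22, 23, 22, 20 and 20 CpG dinucleotides and the lost region 12. In the last sequence, a region 7.26 kb downstream of the DLX4 start site that was called only with I-BET151, capitals mark TAATTA, the core letters bound by many homeodomains, and GATAA, those of GATA factors.
DLX4 downstream, chr17:49976354-49976553: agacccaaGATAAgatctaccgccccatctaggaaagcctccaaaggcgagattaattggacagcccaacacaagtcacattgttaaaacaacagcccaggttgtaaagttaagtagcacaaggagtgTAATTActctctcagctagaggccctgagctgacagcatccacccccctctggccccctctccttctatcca

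More regions near these genes were called with I-BET151 than with DMSO. Peaks covered 39 and 21 of the 108 regions in the DMSO libraries and 59 and 83 in the I-BET151 libraries, so that the groups did not overlap. As shares these were 36.1% and 19.4% against 54.6% and 76.9%, a difference of 37.96 percentage points, with p = 0.333 by an exact two-sided permutation test, the lowest p that 2 against 2 libraries allow. Over all merged regions the shares were 47.9%, 22.9%, 49.2% and 67.7%. The members were thus below the whole set in both DMSO lists and above it in both I-BET151 lists.

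A region is termed gained where both I-BET151 lists and neither DMSO list held a peak, and lost in the reverse case. Of the member regions 32 (29.6%) were gained, where the background over all regions was 17.0%, and 1 (0.926%) was lost, where the background was 2.37%. All 4 lists held 13 (12.04%, background 15.6%), and the remaining 62 had a mixed pattern. The most common mixed patterns were a call in I-BET151 replicate 2 alone (26 regions) and in DMSO replicate 1 alone (16 regions). No member region was called in DMSO replicate 2 alone.

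**Figure D1:**
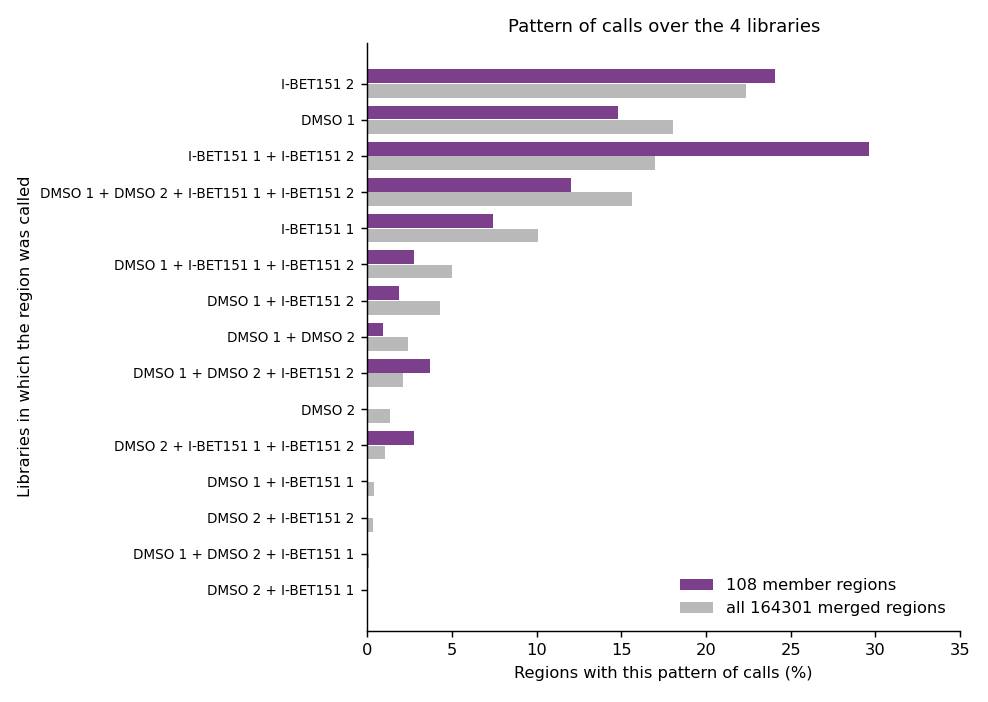
Share of regions (x axis, percent) with each pattern of calls over the 4 libraries (y axis), for the 108 member regions and for all 164301 merged regions. The pattern of both I-BET151 lists and no DMSO list held 29.6% of member regions and 17.0% of all regions, and the pattern of both DMSO lists alone held 0.926% and 2.37%.

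Libraries with the same replicate number were also compared, although the labels do not say whether the numbers pair the libraries. These comparisons differed in how strongly calls leaned to I-BET151. The shortest peaks of the replicate 2 lists were 233 and 256 bp and those of the replicate 1 lists 200 and 200 bp, which is not explained in the sources used here. Between the replicates numbered 1, I-BET151 alone had a peak at 43 member regions (background 28.1% of all regions) and DMSO alone at 23 (background 26.8%), so that 65.2% of the discordant regions leaned to I-BET151, against 51.2% over all regions. Between those numbered 2 the counts were 63 (background 48.6%) and 1 (background 3.84%), or 98.4% against 92.7%. When every list was cut to its strongest 38295 peaks, the length of the shortest list, 43 member regions were left, of which 9 were gained (20.9%, background 9.19%) and 2 lost (4.65%, background 5.85%). The counts thus moved with the length of the lists, and over all regions, too, more were gained (5995) than lost (3820) at equal length.

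Gained regions were spread over 24 of the 38 genes (63.2%, background 46.8% of protein-coding genes), although members had on average 2.89 regions and all genes 6.35. LHX6, LHX9, SIX3, DLX6, EN1, PITX1, EMX1, GBX1 and GBX2 had 2 gained regions each and 15 others had 1. A lost region was found at 1 member, SIX2 (background 12.4% of genes). By family, gained regions made up 7 of 33 for LHX, 3 of 10 for IRX, 3 of 10 for SIX2, SIX3, SIX4 and SIX6, 5 of 12 for DLX, 3 of 7 for PITX, 4 of 10 for GBX and 3 of 5 for EN. They were 2 of 9 for EMX, 1 of 6 for MSX, 1 of 3 for NKX2 and 0 of 3 for OTX. The background over all regions was 17.0%. With 3 to 33 regions in a family, nothing is read from differences between families, which were not tested.

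Signal behind the gained calls was modest. The pileup at the summit ran from 8 to 27 reads in I-BET151 replicate 1 and from 10 to 58 in replicate 2, with medians of 15 and 23.5. Member regions called in all lists had median pileups of 35, 35, 45 and 70. What the DMSO libraries held at uncalled regions was not analysed here. At the 10 kb limit itself, the last region inside was a gained one of GBX2, 9779 bp from the gene body, with a fold enrichment of 5.74 and 4.38 in the I-BET151 lists. The first one outside, 10162 bp from IRX4, was called in I-BET151 replicate 1 alone with a fold of 4.85.

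At the start sites calls leaned to I-BET151 as well. A peak within 1 kb of the start site was found for 8 and 5 of the 38 genes in the DMSO libraries and for 21 and 25 in the I-BET151 libraries. The mean difference was 16.5 genes, with p = 0.333 in the two-sided exact permutation test. For all protein-coding genes the numbers were 12238, 11233, 13315 and 14091 of 20007. Promoters of 12 members (31.6%) had a peak in both I-BET151 lists but in neither DMSO list, against a background of 7.08%, and of none in the reverse direction, against 0.395%. Promoters called in all 4 lists were 4 of 38 (10.5%), where the background was 53.6%, and those called in no list were 10 of 38 (26.3%, background 26.2%), namely LHX1, LHX2, LHX5, IRX1, IRX6, DLX5, OTX2, EN1, EN2 and EMX2. With lists of equal length, members with a called promoter numbered 4, 5, 10 and 7, where all genes numbered 10252, 11218, 11528 and 11261. The promoters then called in both I-BET151 lists alone were those of LHX9 and MSX1 (5.26% of members, background 2.73%).

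**Figure D2:**
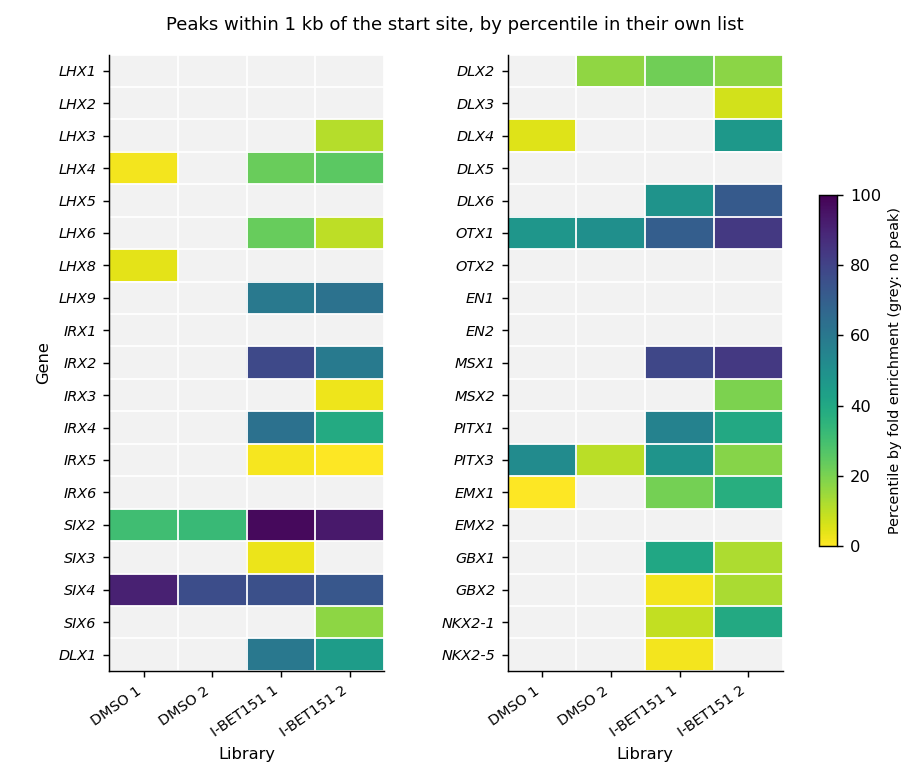
Highest peak within 1 kb of the start site of each member (rows, in 2 panels) in each library (columns), coloured by its percentile for fold enrichment within its own list, with grey for no peak. Grey prevails in the DMSO columns, with 8 and 5 of 38 genes called, and colour in the I-BET151 columns, with 21 and 25.

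Fold enrichment is the pileup at the summit over the local background in the same library, with a pseudocount added to both. It is therefore not a plain ratio of reads. Among the 12 promoters the highest folds belonged to MSX1, a regulator of limb, tooth and skull development, with 8.14 and 9.86 in the I-BET151 libraries at pileups of 27 and 58 reads. IRX2, of the Iroquois family that patterns neural and other tissues, had 8.04 and 6.76, and its summit lay 54 bp upstream of the start site. LHX9, which acts in the gonads and brain, had 6.17 and 7.15. None of these 3 promoters had a peak in either DMSO list.

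DLX genes serve forebrain interneurons, the jaw and the limb. DLX1 had folds of 6.20 and 5.70 with I-BET151, and DLX6 had 5.44 and 8.10 in a region whose summit fell in the coding part of exon 1. PITX1, which specifies the hindlimb, had 5.83 and 5.39. IRX4, known from the ventricles of the heart, had 6.34 and 5.35. All 4 were listed in neither DMSO library.

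The other promoters of this kind were weaker. GBX1 and GBX2, of the spinal cord and the midbrain-hindbrain boundary, had folds of 5.10 and 3.88 and of 3.37 and 3.92. LHX6, of cortical interneurons, had 4.39 and 3.62. NKX2-1, of thyroid, lung and ventral forebrain, had 3.82 and 5.38, in its only region, which also overlaps the promoter of SFTA3. The IRX5 promoter, with 3.24 and 2.64, stood at the 1.19 and 0.289 percentile of its lists, so it was called only just. A strong region next to it, 1.57 kb upstream of the start site, ended just outside the 1 kb window. That region was called in all 4 lists, at percentiles from 96.0 to 98.6. With 3 kb promoters IRX5 was not among those called only with I-BET151. EMX1, of the dorsal forebrain, had a gained region at its start site as well (4.23 and 5.19), but another region 632 bp upstream was called in DMSO replicate 1 with a fold of 2.38, so its promoter does not count among the 12.

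Peaks in the same list were also ranked, so that list-wide shifts in fold cancel, while differences in the length of the lists do not. The locus score of a gene is the mean percentile, by fold, of all its regions within 10 kb, where a region without a call counts 0. The score was higher with I-BET151 for 33 of the 38 members (86.8%, against 81.4% of 18497 genes with a region) and lower for 5. The median difference was 18.7 points against 10.8 for all genes, and with lists of equal length it was 8.40 against -0.422. Both I-BET151 libraries exceeded both DMSO libraries at 27 members (71.1%, background 50.9%), and none was lower in both (background 3.68%). For 11 members both DMSO scores were 0 (28.9%, against 5.25% of genes). Since a region enters the score through a call in any 1 list, such genes are in the set only through their I-BET151 peaks and had to score higher there, so these counts and medians are a description. In limma fitted over all genes, 5 members had a higher score at an adjusted p below 0.05 (13.2%, background 3.15%) and 0 a lower one (background 0.103%), and at an unadjusted p below that value there were 19 of 38 members and 4437 of 18497 genes (23.99%). Both DMSO scores were 0 in 4 of the 5, so nothing is read from this count, and the differences below are given without a test.

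**Figure D3:**
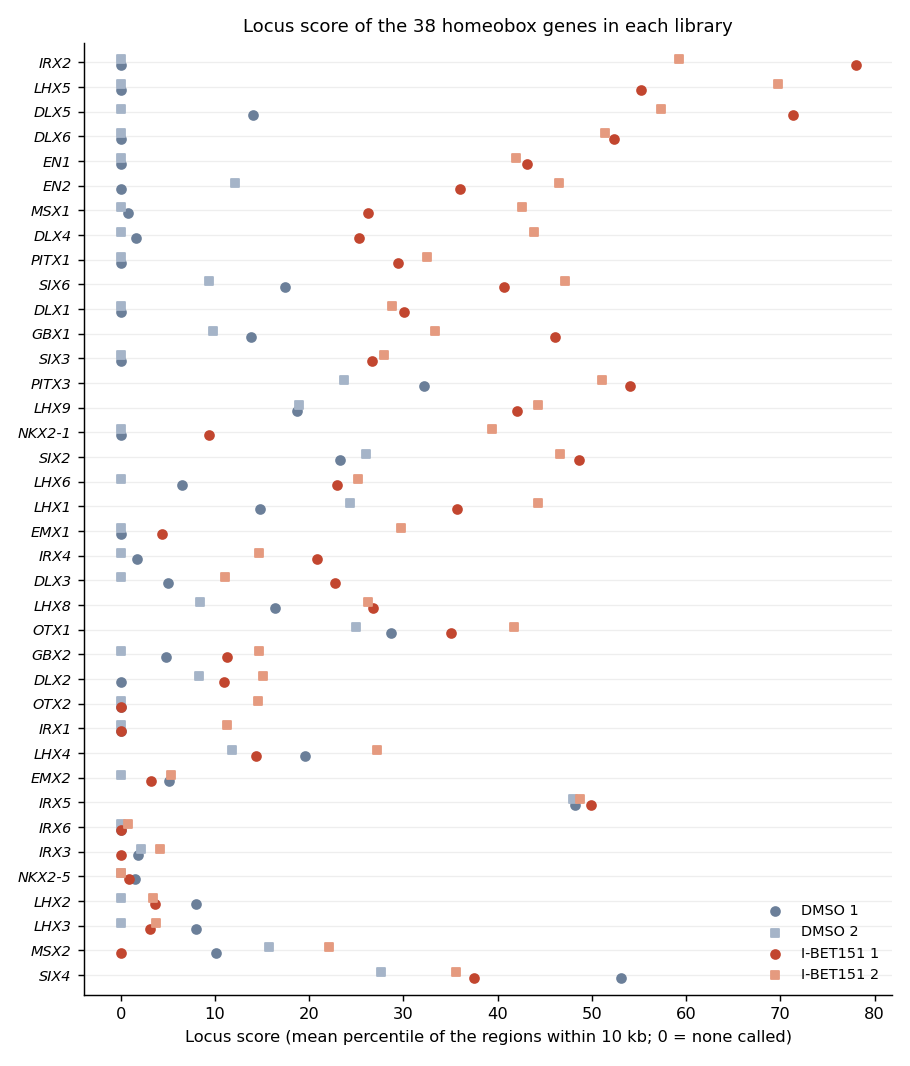
Locus score (x axis, percentile points) of each of the 38 genes (y axis, ordered by the difference between conditions) in the 4 libraries, with circles for replicate 1 and squares for replicate 2. At the top, IRX2, LHX5, DLX6 and EN1 scored 0 in both DMSO libraries and between 41.9 and 78.0 with I-BET151, and at the bottom the points of SIX4, MSX2 and LHX3 overlap.

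The largest difference was that of IRX2, 68.6 points, with scores of 0, 0, 78.0 and 59.2. LHX5, which acts in the forebrain and hippocampus, had scores of 0, 0, 55.2 and 69.7 and a difference of 62.5. Each of these values came from a single region, for LHX5 one in the UTR of exon 5, 9.28 kb from the start site, at chr12:113462424-113462785, and for IRX2 the promoter at chr5:2751629-2751990. They depended on how regions were taken: the LHX5 difference was 13.8 within 50 kb, 25.6 at a −log10 p of at least 10 and 9.58 with lists of equal length, and that of IRX2 was 38.7, 42.2 and 25.6.

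DLX5 and DLX6 lie side by side on chromosome 7 and shared a gained region at chr7:97016665-97017059, so their scores were not independent. DLX5 scored 14.1, 0, 71.4 and 57.3 (difference 57.3). DLX6 scored 0, 0, 52.4 and 51.4 (difference 51.9). The higher value of DLX5 came from a region 2.87 kb upstream with folds of 9.54 and 9.90 with I-BET151 and 3.39 in DMSO replicate 1. EN1, which patterns the midbrain and the ventral limb, scored 0, 0, 43.1 and 41.9 (difference 42.5). It had no promoter peak, and its 2 gained regions lay in intron 1 and 8.09 kb upstream.

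With lists of equal length the differences were 61.1 for DLX5, 10.96 for DLX6 and 16.1 for EN1, so that of these 5 genes only DLX5 kept the size of its difference. The score is a mean over the regions left in the cut lists, so a kept size does not show that the same regions were measured. With 1 library left out the differences ran from 59.2 to 78.0 for IRX2, 55.2 to 69.7 for LHX5, 50.3 to 64.4 for DLX5, 51.4 to 52.4 for DLX6 and 41.9 to 43.1 for EN1. Each such fit has 1 residual degree of freedom and passed 0 genes of any kind, which says nothing of their stability.

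At the other end of the order, 5 members scored lower on average with I-BET151. SIX4, a regulator of muscle and kidney progenitors, had scores of 53.1, 27.6, 37.5 and 35.6, a difference of -3.84. MSX2, the partner of MSX1 in the skull, had 10.1, 15.7, 0 and 22.1, a difference of -1.89. In both genes the DMSO and I-BET151 values overlapped. LHX3, needed for pituitary and motor neurons, had 7.96, 0, 3.06 and 3.74 (difference -0.581), and LHX2, of forebrain and eye, had 7.95, 0, 3.58 and 3.45 (difference -0.462). NKX2-5, the cardiac factor, had 1.55, 0, 0.829 and 0 (difference -0.358). Their largest scores were thus in DMSO replicate 1, and no score of these 3 genes reached 8 points.

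Paralogues did not move alike in size. EN1 and EN2 differed by 42.5 and 35.2 points between conditions, but MSX1 by 34.0 and MSX2 by -1.89, EMX1 by 17.0 and EMX2 by 1.75, and OTX1 by 11.6 and OTX2 by 7.27. Within the Iroquois cluster of chromosome 5, IRX2 differed by 68.6 points while IRX4 differed by 16.9 and IRX1 by 5.61. In the cluster of chromosome 16, IRX3, IRX5 and IRX6 differed by 0.124, 1.22 and 0.391. The differences between paralogues were not tested.

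Only 13 member regions, at 10 genes, were called in all 4 libraries, so only there could the strength of a peak be compared directly. For this comparison ranks by fold were turned into normal scores and fitted with limma over all 25627 such regions. The SIX2 promoter, at chr2:45009338-45010172 with its summit 133 bp upstream of the start site, was the 1 member region that passed (7.69% of 13, background 3.41% higher), and no member region fell (background 1.96%). SIX2 keeps nephron progenitors of the kidney in an undifferentiated state. Its promoter had folds of 3.45 and 3.56 with DMSO and 13.4 and 12.4 with I-BET151, at pileups of 35, 35, 60 and 102 reads. In percentiles of the list it moved from 30.6 and 32.1 to 97.3 and 93.3, and the normal score differed by 2.15 (SE 0.40, limma adjusted p = 0.0121). With 1 library left out the difference ran from 1.81 to 2.49, and with ranks by p-value it was 1.52 (limma adjusted p = 0.116). When peaks had to cover 50% of the region, this promoter was called in both I-BET151 lists and no DMSO list, so it left the shared set. The DMSO peaks thus covered less than 50% of the merged region, and the compared peaks need not lie on the same part of it.

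GBX1 and SIX6 came next. A region 24.9 kb downstream of the GBX1 start site, at chr7:151142412-151143193, had folds of 3.85, 4.03, 12.9 and 11.1, and its normal score differed by 1.45 (SE 0.42, limma adjusted p = 0.0534). A region 6.05 kb downstream of the SIX6 start site had folds of 3.56, 3.20, 8.56 and 8.80 (limma adjusted p = 0.0893). SIX6 is a regulator of eye and pituitary. In both regions the I-BET151 values lay well above the DMSO values, but neither passed the threshold.

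**Figure D4:**
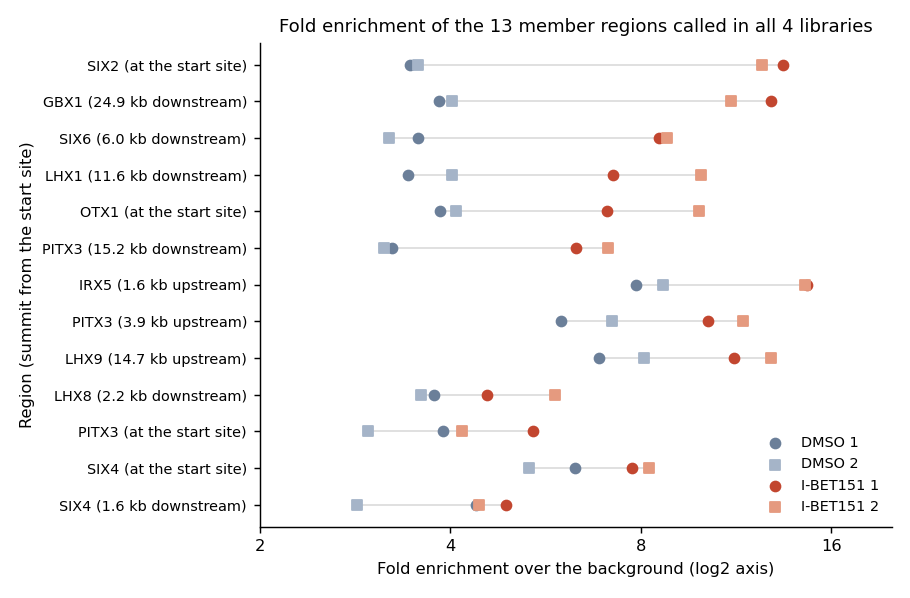
Fold enrichment (x axis, log2 scale) of the 13 member regions called in all 4 libraries (y axis, ordered by the difference in log2 fold), with circles for replicate 1 and squares for replicate 2. The SIX2 promoter runs from 3.45 and 3.56 to 13.4 and 12.4, while the SIX4 region 1.6 kb downstream of the start site had 4.40 and 2.85 with DMSO and 4.90 and 4.43 with I-BET151, values that lie next to each other.

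The folds themselves were shifted as a whole. The median difference in log2 fold between I-BET151 and DMSO was 0.82 for the 13 member regions and 0.83 for all shared regions, and limma called 9 of 13 higher (69.2%, background 76.5%) and 0 lower (background 0.0858%). The members did therefore not stand apart from the shift. After each library was centred on its median, 2 of 13 passed, the SIX2 promoter (log2 difference 0.98 after centring, limma adjusted p = 0.0116) and the GBX1 region (0.69, limma adjusted p = 0.0493), with a background of 2.33% higher and 4.33% lower.

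Of the 5 strongest shared member regions 3 changed little in rank, the GBX1 region stood higher with I-BET151 and the SIX4 promoter lower. A region 1.57 kb upstream of the IRX5 start site had folds of 7.87, 8.67, 14.7 and 14.5 and percentiles of 96.4, 96.0, 98.6 and 97.2. A region 14.7 kb upstream of LHX9 stood at 93.3, 94.5, 92.6 and 94.1, and one 3.93 kb upstream of PITX3 at 89.0, 91.3, 89.2 and 90.7. Both coincide with promoters of other genes, C1orf53 and GBF1, so their signal cannot be assigned to the member. PITX3 is a factor of the lens and of dopamine neurons. The SIX4 promoter came next, at 90.8, 76.3, 75.7 and 72.8, with folds of 6.31, 5.33, 7.74 and 8.25 and a normal score difference of -0.87 (limma adjusted p = 0.170). Among the 108 member regions, 6 overlapped the promoter of another protein-coding gene, and 29 lay within 10 kb of a gene that was no member. A region 11.6 kb from the LHX1 start site, over the promoter of AATF, had folds of 3.43, 4.03, 7.23 and 9.96.

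Of the lost kind there was 1 region, 8.67 kb downstream of the SIX2 start site at chr2:45000548-45000890, with folds of 3.13 and 3.24 and pileups of 21 and 23 reads in the DMSO libraries. It lay at the 16.0 and 19.9 percentile of its lists. Among the members the same gene thus had the largest rise in rank, at its promoter, and the only loss, of a weak peak beyond its 3′ end.

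Member regions were richer in GC and CpG than the merged regions as a whole, a feature which the rule did not use. In 300 bases round the summit their median GC content was 62.8%, against 47.3% for all merged regions, and the ratio of observed to expected CpG was 0.697 against 0.187. A promoter of a protein-coding gene was overlapped by 33.3% of them, against 9.02% of all regions. Gained member regions over a promoter had a median GC content of 75% and those away from promoters 61.7%, where the same classes over all regions had 69.0% and 43.7%. The 17 member regions called only with DMSO had a median GC content of 58.3% and a CpG ratio of 0.30, against 63.0% and 0.748 for the 66 called only with I-BET151. Over all regions the order of GC content was the reverse, 51.7% with DMSO only and 43.7% with I-BET151 only, at CpG ratios of 0.170 and 0.172. Of the 17 member regions, 16 were called in DMSO replicate 1 alone. Of the 66, 26 were called in I-BET151 replicate 2 alone, 8 in replicate 1 alone and 32 in both. The DMSO side of the contrast among members thus rests almost wholly on 1 library.

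GC content moved with the gained calls among members. Of member regions with a GC content of 50 to 60%, 6 of 28 were gained (21.4%), of those with 60 to 70% 13 of 44 (29.5%), and of those with 70% or more 11 of 25 (44%). Over all regions the corresponding shares were 11.3%, 11.7% and 17.4%, so the members lay above all regions of like GC content in each of these classes. Of those below 40% 2 of 3 were gained (background 24.1%), and of those with 40 to 50% 0 of 8 (background 18.6%), where members lay below all regions. Over all regions the share was highest in the class below 40%. Libraries can differ in how well they recover GC-rich DNA, and the part of that in these counts was not tested.

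**Figure D5:**
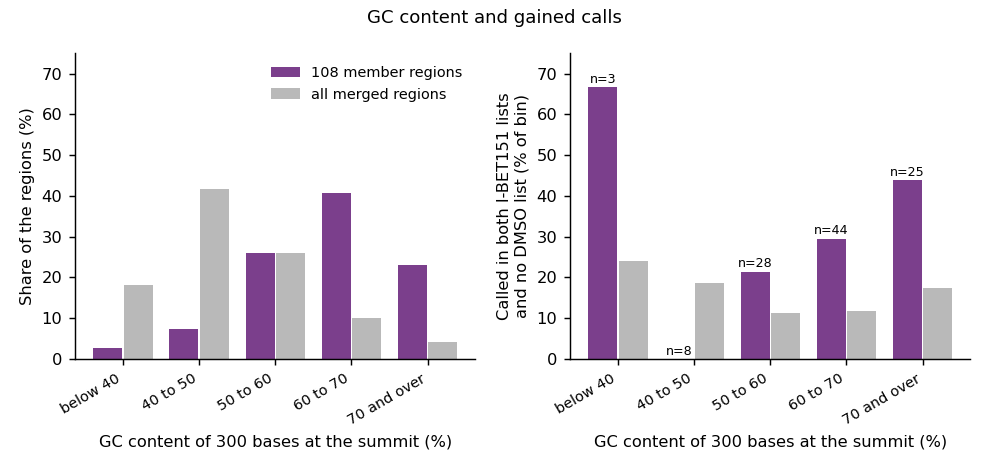
Distribution of GC content in 300 bases round the summit (left, percent of regions in each class) and share of each class called in both I-BET151 lists and no DMSO list (right, percent), for the 108 member regions and for all merged regions. Classes of 60 to 70% and of 70% or more hold 40.7% and 23.1% of member regions against 10.0% and 4.22% of all regions, and n above a bar is the number of member regions in the class.

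Short motifs, searched on both strands of the same 300 bases, were less frequent in the GC-rich member regions than in all regions. TAATTA was found in 5 of 108 (4.63%, against 7.42% of all regions) and TAATCC, the letters bound by OTX and PITX proteins, in 3 (2.78% against 9.15%). CACTTG, those of NKX2 proteins, was found in 10 (9.26% against 15.7%), TGACTCA, those of AP-1, in 5 (4.63% against 10.9%), and GATAA in 16 (14.8% against 38.04%). The consensus of CTCF was present in 2 (1.85% against 2.24%), a gained region 3.17 kb upstream of DLX3 and a gained region 5.10 kb upstream of GBX1. TAATTA and the reverse of GATAA can share letters, as they did in a gained region 31.2 kb downstream of the LHX6 start site.

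Homeobox genes of the pancreas and gut had a different starting point from the members, and several of their values lay near those of all genes. For 20 such genes, among them PDX1, NKX6-1 and ONECUT1, promoters were called in 12, 11, 15 and 15 cases. All 4 libraries held 11 of them (55.0%, against 10.5% of members and 53.6% of all genes). Only both I-BET151 lists held 3 (15.0%, against 31.6% of members and 7.08% of all genes). Around the 20 genes 17.4% of 241 regions were gained (background 17.0%) and 2.90% lost (background 2.37%). The median difference in locus score was 10.5 points, against 18.7 for the members and 10.8 for all genes. Median scores were 21.3, 7.58, 26.8 and 32.3 for the pancreas and gut genes and 3.29, 0, 26.4 and 31.1 for the members. In the I-BET151 libraries the medians of the 2 groups were thus close, and in the DMSO libraries the members lay lower. The score is a mean over all regions of a gene, in which uncalled regions count 0. The pancreas and gut genes had on average 12.05 regions and the members 2.89, so close medians do not show equal accessibility. With I-BET151, promoters were called for 15 and 15 of the 20 pancreas and gut genes, and for 21 and 25 of the 38 members. The difference between the groups of genes was not tested.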

How the data were processed

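ATAC-seq peak lists of 4 libraries (2 DMSO, 2 I-BET151) were used, with conditions and replicate numbers from the sample labels. The authors aligned the libraries with Bowtie2 (v2.2.5, genome build hg38), removed duplicate and mitochondrial reads, and ran MACS2 (v2.1.2) on 1 library at a time. The deposited columns used were the summit's fold enrichment and −log10 of the p-value and q-value. Fold enrichment is the ratio of the summit's pileup to the background around it in that library, with a pseudocount added to both. The deposited score, a display value, was not used. The lists reach a q-value of 0.05, and 7.54 to 10.9% of their peaks had a p-value above 1e-05, the threshold of the methods. Because depth and background differ between libraries (background of 2.87, 3.16, 0.923 and 1.52 reads per position), a missing call is not a measured absence.

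Peaks on chromosomes 1 to 22, X and Y that shared 1 bp were merged, and each list's highest peak in a region was kept. Gene bodies and canonical start sites were those of GENCODE release 44, and no peak ran past the hg38 chromosome ends. Pileups in whole reads were solved from fold and p-value. Normal scores of ranks, log2 folds (no further pseudocount) and locus scores were each fitted over all features with limma 3.58.1 in R 4.3.3, with a trend for locus scores. Results were adjusted by Benjamini-Hochberg at 0.05. Counts per library were compared by exact permutation tests. Scripts (Python 3.11.15) were tested on simulated data. The labels do not say whether replicate numbers pair the libraries, and the numbers were not taken as pairs in the main fits. Deviations of the same number correlated at -0.143 for ranks and -0.0717 for locus scores, which cannot show whether the libraries were paired.

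Alternatives were a −log10 p of at least 10 or 5, lists of equal length, a 50% cover of the region, windows of 0 or 50 kb, 3 kb promoters, ranks by p-value, centred folds, a replicate block, each replicate number alone and each library left out. Values were given in full for member regions past the rank threshold, promoters called in both libraries of 1 condition only, the 5 largest and 5 smallest differences in locus score, members with most gained or lost regions, and the 5 strongest shared regions. The members and lists were chosen with earlier results of these data known.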

Additional observations from a re-analysis of the deposited data

How the results depend on the processing

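The direction of the difference in called regions, in promoter calls and in the median locus score was the same under every alternative run; sizes moved. For the difference in called member regions (37.96 points) the value was 59.4 at a −log10 p of at least 10, and 29.6 to 53.8 with 1 library left out. Gained regions (32 of 108) numbered 19 of 48 at −log10 p of at least 10 (39.6%, background 23.3%). With lists of equal length they numbered 9 of 43 (20.9%, background 9.19%). They were 18 of 53 in gene bodies only (34.0%) and 59 of 264 within 50 kb (22.3%), both against 17.0%. Between the libraries numbered 1 they were 43 (background 28.1%), and between those numbered 2 they were 63 (background 48.6%). With 1 library left out they ran from 35 to 58. The 58 of 100 came without I-BET151 replicate 1, where 64627 of all 147850 regions were gained. Lost regions (1) numbered 0, 2, 0, 6, 23 and 1 under the same settings in that order. The backgrounds were 195 of 72496 regions, 5.85%, 2.37% for both windows, 26.8% and 3.84%. With 1 library left out they ran from 1 to 17. The 17 of 108 came without DMSO replicate 2, where 33910 of all 162566 regions were lost. The difference in called promoters (16.5 genes) was 8 at −log10 p of at least 10, 4 with equal lists, and 13.5 to 18.5 with 1 library left out. The median difference in locus score was 18.7, where that of all genes was 10.8. It was 25.5 and 21.7 at −log10 p of at least 10 and 5 (all genes 21.2 and 11.8) and 8.40 with equal lists (all genes -0.422). At 50% cover it was 14.4 (all genes 13.3), in gene bodies 11.3 (all genes 10.2) and within 50 kb 14.4 (all genes 10.5). The members were thus close to all genes at 50% cover and in gene bodies. With 1 library left out the members' median ran from 17.3 to 26.7 and that of all genes from 5.74 to 19.7. Members with a raised rank (1) numbered 2 at −log10 p of at least 10, 2 at 5, 2 with equal lists, 0 by p-value, and 0 to 3 with 1 library left out; those with a raised fold (9) numbered 2 after centring and 0 to 11, the 0 being without DMSO replicate 2, where no region of any kind was called. Members with a raised locus score (5 of 38) numbered 0 of 31 with equal lists (background 0%) and 0 of 38 at 50% cover (background 1.25%). With the replicate block 2 members had a raised rank, 9 a raised fold and 4 a raised locus score. The backgrounds were 3.84%, 62.8% and 4.37%, and EN1 dropped out with an adjusted p of 0.0655 in limma. With the numbers crossed, chosen after seeing the data, the counts were 3, 12 and 15, against backgrounds of 7.75%, 88.1% and 19.2%. Of the 5 members with a lower score, SIX4 turned to 7.57 at 50% cover, 19.3 within 50 kb and 13.9 by p-value; MSX2 to 5.98 at 50% cover, 9.91 in its gene body and 0.262 within 50 kb; LHX3 to 5.61 in its gene body and 14.8 within 50 kb; LHX2 to 4.78 in its gene body; and NKX2-5 to 0.829 in its gene body and 2.59 within 50 kb. With 1 library left out their differences ran from -16.6 to 8.91 (SIX4), -38.8 to 9.16 (MSX2), -4.56 to 5.10 (LHX3), -4.44 to 5.27 (LHX2) and -1.55 to 0.829 (NKX2-5). The causes of these moves were not tested. Gained calls rested on as few as 8 reads, and estimated depth was lower in both I-BET151 libraries. The part of depth in the calls was not tested.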

Other observations

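Another 55 homeobox genes of other lineages that are no members, among them ALX4, LMX1A and POU4F1, were measured in the same way. Of 186 regions within 10 kb of them 46 were gained (24.7%) and 1 was lost (0.538%). Their promoters were called in 11, 7, 23 and 26 cases in DMSO replicates 1 and 2 and I-BET151 replicates 1 and 2, 12 of them in both I-BET151 lists alone (21.8%) and 7 in all 4 lists (12.7%). No peak was listed in any library at 25 of these promoters (45.5%, against 26.3% of the members). The median difference in locus score was 15.4 points. Of the 53 genes with a region, 36 (67.9%) had higher scores in each I-BET151 library than in either DMSO library, where the background over all genes was 50.9%. Both DMSO scores were 0 for 16 of the 53 (30.2%, against 5.25% of genes). Such genes are in the set only through their I-BET151 peaks and had to score higher there, so these values, too, are a description.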
